A study of Mus musculus with 8 samples.

Results

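Cathepsins are proteases, most of them active in the acidic lumen of lysosomes, where they break down proteins taken up by phagocytosis, endocytosis or autophagy. The table of normalised counts held 23 genes with a cathepsin symbol, and the 10 described here (Ctsa, Ctsb, Ctsc, Ctsd, Ctsf, Ctsh, Ctsl, Ctso, Ctss and Ctsz) were chosen by symbol out of 55471 gene rows. They were all the cathepsin genes with reads: the other 13, among them the osteoclast protease gene Ctsk, the neutrophil protease gene Ctsg, Ctse and Ctsw, had no read in any of the 8 libraries. By catalytic type 8 of the 10 encode cysteine proteases of the papain family, Ctsd encodes an aspartic protease and Ctsa a serine carboxypeptidase. Cathepsins are made as inactive precursors and matured in the endolysosome. In microglia, the macrophages of the brain, they are abundant and serve digestion of engulfed material and processing of antigen, and some can be secreted and cut extracellular proteins. The title of the series concerns remodelling of the extracellular matrix by microglia.

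The libraries came from hippocampal microglia of C57/Bl6 mice at postnatal day 30, collected 4 hours after an injection of the cytokine interleukin-33 (IL-33, replicates 1 to 4) or of phosphate-buffered saline (PBS, replicates 5 to 8). Replicates 1, 2, 5 and 6 were female, and 3, 4, 7 and 8 male. All mice were perfused with PBS, and cells low in CD45, positive for CD11b and negative for Ly-6C were sorted by flow cytometry. Whether each library is 1 animal is not stated in the labels. The tests therefore compare the groups with the variation among these libraries alone, part of which may be technical.

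Reads assigned to genes numbered 16827343 to 20360164 per library after IL-33 and 19183115 to 21483352 after PBS. IL-33 replicates 3 and 4 had 8948 and 7958 genes with at least 10 reads, fewer than the 10311 to 11902 of the other 6 libraries. Each of 14 microglial marker genes had reads, with 0 called higher and 6 lower after IL-33. Of all tested genes 3.06% were called higher and 2.8% lower. Among genes whose mean reached 1000 the shares were 10.9% and 8.34%. The microglial list took 3.21% to 5.17% of reads after IL-33 and 4.74% to 6.31% after PBS. P2ry12, a purinergic receptor gene of resting microglia, fell after IL-33 (log2 fold change −2.47 ± 0.23 SE, limma adjusted p = 7.01e-07), while Cx3cr1 had 195362 ± 46104 normalised counts in the PBS group and 197999 ± 51970 in the IL-33 group. Of 10 neutrophil markers 9 had no reads, S100a8, S100a9, Ly6g and Elane among them. Lymphocyte markers summed to 268 to 846 after PBS and 1809 to 5450 after IL-33. Most of that sum was Cd79b, the one called of 3 tested members of 10 listed (2.75, limma adjusted p = 0.002966), while Cd3e, Cd79a and Ms4a1 were at 0. In the PBS and IL-33 libraries, in this order, sums were 31.5 to 595 and 10.9 to 619 for border macrophage markers, 19.6 to 171 and 123 to 907 for monocytes, and 3079 to 5594 and 5629 to 8508 for astrocytes. They were 378 to 1139 and 815 to 2096 for neurons, 3436 to 5195 and 3574 to 6023 for oligodendrocytes, and 394 to 948 and 165 to 635 for endothelium. The part of these values in the results for cathepsins was not tested.

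Values below are normalised read counts from libraries that read the 3′ end of transcripts. A transcript gives about 1 fragment whatever its length, so that length has little part in differences of count between genes. Rankings between genes are of counts, since the handling of duplicates and of reads matching several places is not given. They measure RNA in a bulk sample, in which fewer cells of a type and less RNA per cell cannot be told apart. Fold changes compare group means of log2(value + 1), with positive numbers for genes higher after IL-33. Calls required an adjusted p (Benjamini-Hochberg) under 0.05 in limma, among 13877 genes whose mean reached 10. The share of all tested genes at an unadjusted p under 0.05 was not counted for IL-33 against PBS. All 10 cathepsin genes passed that minimum, and each had reads in all 8 libraries.

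Together the cathepsin genes took between 2.05% and 2.68% of all reads of a library. Ctss alone made up 53.9% ± 3.97 of the cathepsin reads after PBS and 55.8% ± 1.39 after IL-33 (SD, n = 4 each). The order of levels was the same at the top in the 4 PBS libraries: Ctss was highest, then Ctsd, then Ctsb. Ctsh, Ctsl and Ctsz followed in an order that differed from library to library, as did Ctsc and Ctsa below them, and Ctsf and Ctso were lowest, in that order in each PBS library. After IL-33 this order no longer held in every library: Ctsb stood above Ctsd in IL-33 replicates 3 and 4, and in replicate 4 Ctsl and Ctsc did so as well.

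IL-33 was followed by opposite changes of 2 members, while Ctss, the most abundant one, did not pass the test (log2 fold change −0.01). Ctsd fell and Ctsc rose, by 2.33-fold and 2.35-fold. Thus 2 of 10 members were called, 1 higher and 1 lower, where 5.85% of all tested genes were called (3.06% higher and 2.8% lower). Among the 3116 genes whose mean reached 1000, 19.3% were called, 10.9% higher and 8.34% lower. All members but Ctso had such a mean, and calls were more frequent at that abundance, so that the members' share of calls was near the background of abundant genes. The median log2 fold change of the 10 members was 0.02, against 0.08 for those abundant genes and −0.40 for all tested genes. Groups did not overlap for the same 2 members, as for 13.7% of all tested genes and 29.5% of the abundant ones. With IL-33 replicates 3 and 4 left out, limma called 0 members (3 had an unadjusted p under 0.05), while edgeR and DESeq2 on recovered reads from all 8 libraries called the same 2 genes.

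**Figure D1:**
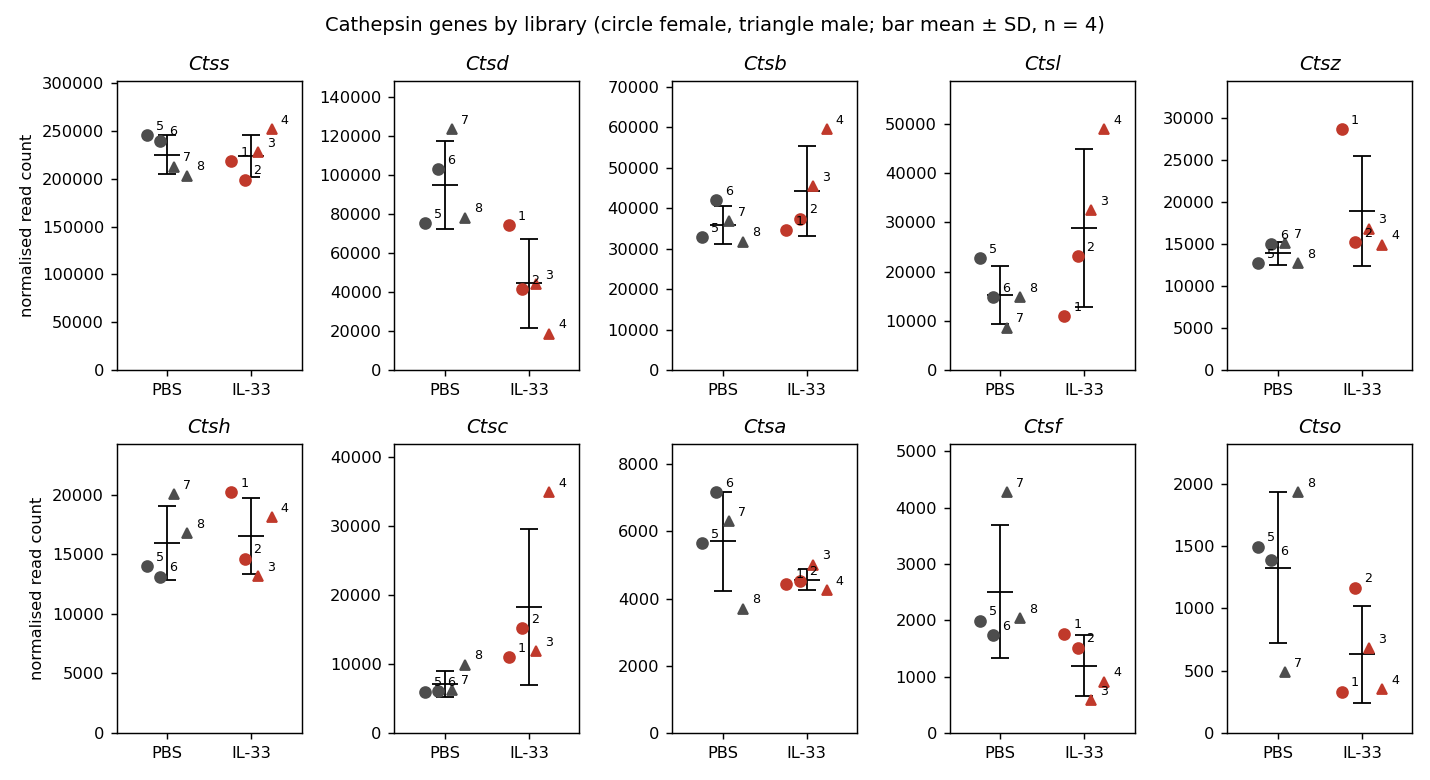
Normalised read count (linear axis from 0) of each cathepsin gene in every library, numbered by replicate, with circles for females, triangles for males and bars for the mean ± SD (n = 4). Ctsd is lower and Ctsc higher in all 4 IL-33 libraries than in all 4 PBS libraries, Ctss lies between 198987 and 251748 throughout, and IL-33 replicate 4 holds the lowest Ctsd and the highest Ctsc, Ctsl, Ctsb and Ctss of all libraries.

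Ctsd (ENSMUSG00000007891, chr7:142375911-142388038, minus strand, GRCm38) encodes cathepsin D, the main aspartic protease of the lysosome, which cleaves long-lived proteins and helps activate other hydrolases. Its counts in PBS replicates 5 to 8 were 75448, 103211, 123693 and 78378. In IL-33 replicates 1 to 4 they were 74480, 41469, 44113 and 18795. All IL-33 values lay below all PBS values, but IL-33 replicate 1 was only 1.28% below the lowest PBS value, and replicate 4 was far below the others of its group. The means were 95183 ± 22724 after PBS and 44714 ± 22867 after IL-33 (SD, n = 4 each), a log2 fold change of −1.22 ± 0.27 SE (95% interval −1.80 to −0.65, limma adjusted p = 0.01013). The call ended without PBS replicate 6 (−1.17, limma adjusted p = 0.0675) and without IL-33 replicates 3 and 4 (−0.75, limma adjusted p = 0.104). Within the cathepsin reads, a measure that no scaling of libraries can move, Ctsd went from 18.0% to 28.5% of the sum in the PBS libraries to 4.15% to 18.4% after IL-33, where replicate 1 overlapped the lowest PBS library.

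As a share of all reads the cathepsin sum was also lower after IL-33, at 2.23% ± 0.133 against 2.58% ± 0.138 after PBS (SD, n = 4 each). The ranges, 2.05% to 2.35% and 2.38% to 2.68%, did not overlap but lay close together. On the scale of normalised counts the sums did overlap, at 353264 to 452379 after IL-33 and 375063 to 444126 after PBS. Ctsd took 0.587% ± 0.135 of reads after PBS and 0.253% ± 0.135 after IL-33. Ctss also took a smaller mean share, 1.25% to 1.31% in 3 IL-33 libraries and 1.15% in replicate 2, against 1.29% to 1.51% after PBS, with overlapping groups, while mean shares of Ctsb, Ctsc, Ctsl and Ctsz were higher. The 8 cysteine cathepsins together took 1.96% ± 0.106 of reads after PBS and 1.95% ± 0.194 after IL-33, and their ranges overlapped. A share of reads also moves when other genes take more or fewer reads.

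**Figure D2:**
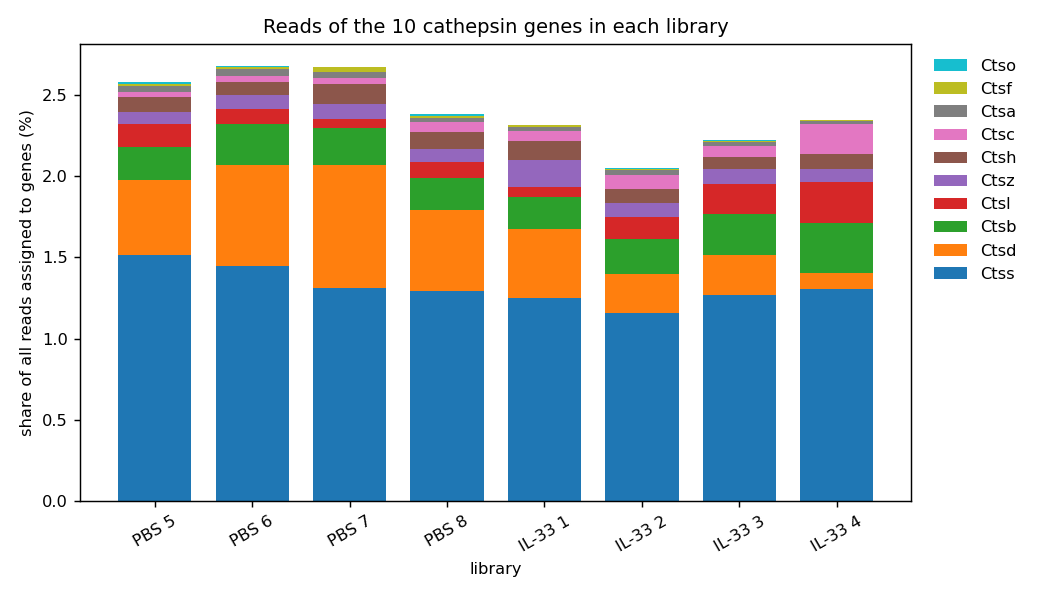
Share of all reads assigned to genes (%, stacked bars from 0) taken by each of the 10 cathepsin genes in each library. Bars reach 2.38% to 2.68% after PBS and 2.05% to 2.35% after IL-33, the Ctss part is the largest in all (1.29% to 1.51% after PBS, 1.15% to 1.31% after IL-33), and the Ctsd part goes from 0.464% to 0.761% after PBS to 0.0975% to 0.426% after IL-33.

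Promoters of many lysosomal genes hold E-boxes, to which the transcription factors TFEB and TFE3 can bind. Windows of the 250 bases before the transcription start (RefSeq, GRCm38.p6) were on hand for 8 of the 10 genes, 9 windows in all with a pair for Ctsa. The palindrome CACGTG was present in windows of 4 genes, Ctsa, Ctsd, Ctsf and Ctsl, and in 6.02% of 32851 windows of all genes. Ctsd was the one with a pair of them, at 245 to 240 and 98 to 93 bases before the RefSeq start. These sites were picked for display with the results known, and a link to the change of Ctsd was not tested. The sites follow 5′ to 3′ on the gene's strand, with the E-box in capitals; the first Ctsd stretch begins at the edge of its window.

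Ctsa (chr2:164833749-164833778, strand plus): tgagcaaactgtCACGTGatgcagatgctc
Ctsd (chr7:142388055-142388077, strand minus): tccccCACGTGacctgtatccag
Ctsd (chr7:142387908-142387937, strand minus): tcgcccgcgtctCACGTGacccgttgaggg
Ctsf (chr19:4855074-4855103, strand plus): caccccgtggtcCACGTGcctcgcgtaaat
Ctsl (chr13:64370739-64370768, strand minus): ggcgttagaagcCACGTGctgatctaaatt

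The sites of Ctsa and Ctsl, and the second one of Ctsd, lie in an annotated UTR exon of a GENCODE transcript, and so inside the annotated gene. The longer form TCACGTG, on either strand, contains the E-box and was found in Ctsa and Ctsd, and in 3.13% of all windows. Of the 4 genes with an E-box only Ctsd was called. The estimates of Ctsa (−0.28) and Ctsf (−1.10) were negative and that of Ctsl (0.81) was positive. A match of letters is not evidence of binding.

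Ctsc (ENSMUSG00000030560, chr7:88278085-88310888, plus strand) encodes cathepsin C or dipeptidyl peptidase I, which removes dipeptides from the amino end of proteins and activates the granule serine proteases of leukocytes. Its counts were 5984, 6006, 6272 and 9901 in PBS replicates 5 to 8. After IL-33 they were 10947, 15192, 11818 and 34886 in replicates 1 to 4. Every IL-33 library lay above every PBS library, by 10.6% at the closest pair, and replicate 4 was far above the next value, so that the SD after IL-33 was 61.9% of the mean. Means were 7041 ± 1911 after PBS and 18211 ± 11266 after IL-33 (SD, n = 4 each). The log2 fold change was 1.24 ± 0.31 SE (95% interval 0.58 to 1.89, limma adjusted p = 0.02184). The call was kept without IL-33 replicate 4 (0.87, limma adjusted p = 0.0311), but ended without PBS replicate 5, 6 or 7 (limma adjusted p = 0.0792, 0.0964 and 0.0614) and without IL-33 replicates 3 and 4 (0.91, limma adjusted p = 0.0833).

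The upstream window of Ctsc, the other called member, holds no E-box. Its capitals mark the core GAGGAA of the macrophage factor PU.1, which reads TTCCTC on the printed strand. The core was found in Ctsc and Ctss and in 23.3% of all windows. The window of Ctss, the most abundant member, is set beside it, with the same core and a match to a pattern of interferon response elements in capitals (GAAA, any 2 bases, GAAA), which 2.98% of all windows hold and no other member's did.

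Ctsc (chr7:88277835-88278084, strand plus): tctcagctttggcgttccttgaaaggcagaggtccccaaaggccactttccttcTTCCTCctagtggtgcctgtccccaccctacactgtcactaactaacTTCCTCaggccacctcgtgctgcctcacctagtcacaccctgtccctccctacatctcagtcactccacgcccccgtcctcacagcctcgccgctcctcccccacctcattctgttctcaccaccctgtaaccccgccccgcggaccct
Ctss (chr3:95526536-95526785, strand plus): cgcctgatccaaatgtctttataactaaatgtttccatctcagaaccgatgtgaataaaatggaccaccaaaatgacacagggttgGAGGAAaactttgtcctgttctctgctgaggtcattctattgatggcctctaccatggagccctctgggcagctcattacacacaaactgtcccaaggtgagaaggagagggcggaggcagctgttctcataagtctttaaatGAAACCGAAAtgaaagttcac

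The AP-1 pattern TGANTCA was in none of the members' windows and in 6.75% of all windows. The consensus of NF-κB sites (κB) was in that of Ctso alone and in 3.90% of all windows. Both strands were searched for each pattern, and an absent match says only that these letters are not in this stretch.

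Ctss (ENSMUSG00000038642, chr3:95526786-95556403) encodes cathepsin S, which stays active at neutral pH and degrades the invariant chain during antigen presentation. Among all rows of the table it ranked between 3 and 6 by count in every library. PBS replicates 5 to 8 had 245572, 239662, 212532 and 203137, and IL-33 replicates 1 to 4 had 218290, 198987, 227722 and 251748. The groups overlapped almost fully, and the spread within each was under 10% of the mean. Means were 225226 ± 20587 after PBS and 224187 ± 21924 after IL-33, with a log2 fold change of −0.01 ± 0.10 SE (limma adjusted p = 0.9756). The 95% interval was −0.21 to 0.19 in this fit, and the estimate was 0.23 with quantile normalization, outside that interval.

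Ctsb and Ctsl encode abundant endopeptidases of the lysosome, and cathepsin B also acts as a carboxydipeptidase. Ctsl (ENSMUSG00000021477, chr13:64359337-64370890) was at 22791, 14856, 8618 and 14760 in PBS replicates 5 to 8. In IL-33 replicates 1 to 4 it was at 10920, 23115, 32531 and 48912. IL-33 replicates 2, 3 and 4 lay above all PBS libraries, replicate 2 only just, whereas replicate 1 lay below 3 of the 4. The log2 fold change of 0.81 ± 0.35 SE did not pass (limma adjusted p = 0.204). It passed without IL-33 replicate 1 (1.21, limma adjusted p = 0.0221) and was 0.14 without replicates 3 and 4. Ctsb (ENSMUSG00000021939, chr14:63122462-63145923) was at 32803, 41985, 36741 and 31697 after PBS and at 34526, 37416, 45418 and 59486 after IL-33. Its replicates 3 and 4 after IL-33 also exceeded all PBS libraries, but replicates 1 and 2 were within the PBS range. The estimate was 0.28 ± 0.17 SE (limma adjusted p = 0.3936), and −0.13 with quantile normalization. Some members overlap other annotated genes, whose reads could be shared if strand was not used. The highest mean of such a gene over the 8 libraries was 188 for Ctsb (Fdft1), 149 for Ctsz (Nelfcd), 145 for Ctss (the pseudogene Hmgb1-ps5), 10.2 for Ctsa and 0 for Ctsc, Ctsd and Ctsl.

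Ctsz and Ctsh encode exopeptidases, cathepsin Z (or X) being a carboxypeptidase and cathepsin H an aminopeptidase. Ctsz (ENSMUSG00000016256, chr2:174427493-174439039) was at 12707, 14968, 15057 and 12727 in the PBS libraries, and at 28620, 15225, 16814 and 14883 in the IL-33 libraries. Here it was replicate 1 that stood apart, and the remaining IL-33 values were close to the PBS range. The estimate was 0.40 ± 0.22 SE (limma adjusted p = 0.344). Ctsh (ENSMUSG00000032359, chr9:90054152-90076089) was at 14016, 13149, 20050 and 16791 after PBS and 20260, 14646, 13187 and 18157 after IL-33. Its groups overlapped over their whole range (0.05 ± 0.21 SE, limma adjusted p = 0.9156), and the sign of the estimate changed with quantile normalization (−0.28).

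The least abundant members had lower means after IL-33, and none passed. Ctsa (ENSMUSG00000017760, chr2:164832873-164841032) encodes the protective protein that stabilises lysosomal β-galactosidase and neuraminidase. It was at 5638, 7172, 6308 and 3698 after PBS and 4446, 4535, 5000 and 4251 after IL-33 (−0.28 ± 0.29 SE, limma adjusted p = 0.6019). PBS replicate 8 was the lowest of all 8 libraries, and the IL-33 libraries lay between it and the other PBS libraries. Ctsf (ENSMUSG00000083282, chr19:4855130-4860918) encodes a cysteine protease that can process the invariant chain in macrophages. Its PBS counts were 1993, 1730, 4278 and 2038 and its IL-33 counts 1764, 1513, 581 and 909. The groups overlapped at 1 pair of libraries, PBS replicate 6 and IL-33 replicate 1 (−1.10 ± 0.48 SE, limma adjusted p = 0.2089). Ctso (ENSMUSG00000028015, chr3:81932601-81956725) encodes a little-studied cysteine protease. It was at 1498, 1387, 489 and 1937 after PBS and at 332, 1167, 681 and 351 after IL-33, where PBS replicate 7 fell among the IL-33 values (−1.10 ± 0.63 SE, limma adjusted p = 0.3587). The intervals of Ctsa, Ctsf and Ctso reach down to −0.89, −2.11 and −2.42, so that changes as large as that of Ctsd are within them for Ctsf and Ctso.

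**Figure D3:**
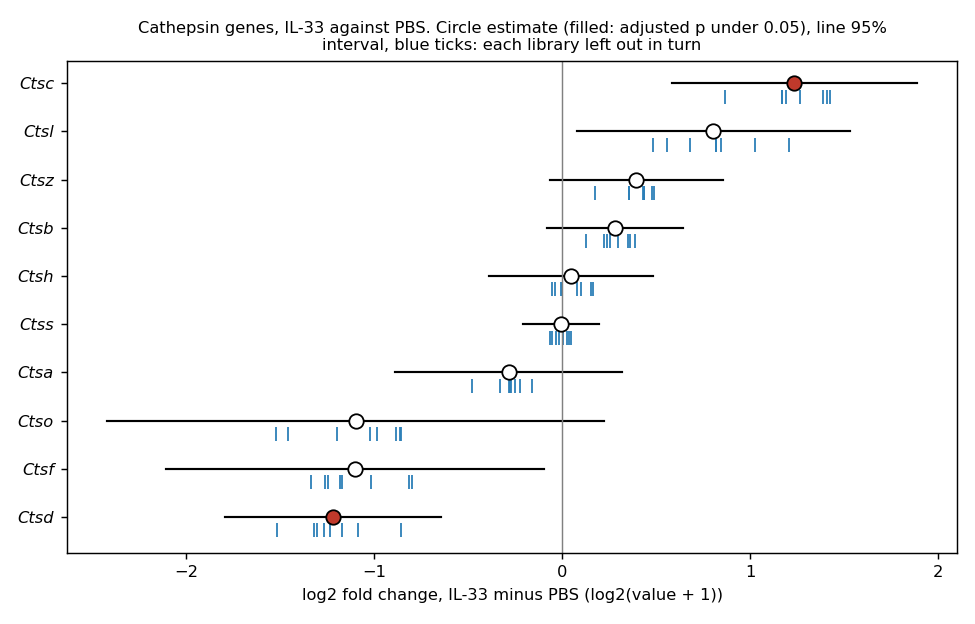
Log2 fold change after IL-33 (circles, filled at an adjusted p under 0.05 in limma) with its 95% interval for each cathepsin gene, and blue ticks for the estimate with each library left out in turn. Ctsc at 1.24 and Ctsd at −1.22 are filled, and the ticks of Ctss (−0.065 to 0.048) and Ctsh (−0.055 to 0.16) lie on both sides of 0.

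The 2 females and 2 males in each group allowed the IL-33 effect to be compared between the sexes. No gene passed in that interaction by limma (0 of 13877, or 0.0%, with 809 at an unadjusted p under 0.05). Ctsl had the largest difference among the members: its estimate was −0.21 ± 0.42 SE in females and 1.82 ± 0.42 SE in males, a difference of −2.03 (limma unadjusted p = 0.00656, adjusted p = 0.783). Ctss differed by −0.42 (unadjusted p = 0.0164) and Ctsf by 1.84 (unadjusted p = 0.049), both with a limma adjusted p of 0.783. These 3 of 10 members compare with 5.83% of all tested genes and 5.2% of those whose mean reached 1000 at an unadjusted p under 0.05. The estimates of the called members had the same sign in both sexes: Ctsc was 1.11 in females and 1.37 in males, and Ctsd −0.67 and −1.77. Within a single sex neither passed by limma (Ctsc adjusted p = 0.386 and 0.178, Ctsd 0.621 and 0.0702, females first). The male IL-33 libraries are also the 2 with the fewest genes, so that sex and this property of the libraries cannot be told apart.

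Cathepsins are held in check by cystatins and serpins. Of 24 listed inhibitor genes 23 were matched in the table by symbol, and 17 of these had no reads, Stfa1, Csta1 and Cst6 among them. By limma 0 of the 5 tested were called, where 5.85% of all tested genes and 19.3% of those whose mean reached 1000 were. Of these 5, 2 had an unadjusted p under 0.05, and edgeR and DESeq2 called 0. Cst3, which encodes the secreted inhibitor cystatin C, exceeded Ctss in mean count, at 371138 ± 51837 after PBS and 292885 ± 65556 after IL-33 (−0.36 ± 0.13 SE, limma adjusted p = 0.1245). Cystatin B (Cstb), an inhibitor of the cytosol, was at 970 ± 917 and 1637 ± 318 (1.55, limma adjusted p = 0.2644). Its estimate was 0.82 without PBS replicate 7, 2.14 without PBS replicate 8, and 0.75 in both edgeR and DESeq2. Cst7, named after its values were seen, encodes cystatin F, which inhibits cathepsin C among others. It was at 568, 287, 529 and 663 in the PBS libraries and 613, 70.2, 7.89 and 0.955 in IL-33 replicates 1 to 4, the last being 1 read. The groups overlapped through replicate 1 (−4.05, limma adjusted p = 0.1604).

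Among 17 tested genes of maturation, sorting and partners 3 fell and 0 rose (median −0.39, against −0.40 for all tested genes), where 2.8% of all tested genes and 8.34% of those whose mean reached 1000 were called lower. edgeR called 2 of them lower and DESeq2 4, and 4 were called lower by limma without IL-33 replicates 3 and 4. Receptors that sort lysosomal enzymes did not all have negative estimates: M6pr, the cation-dependent mannose-6-phosphate receptor, named after its values were seen, was at 2021 ± 1451 and 4106 ± 1951 (1.11, limma adjusted p = 0.1916). Sort1, the sorting receptor sortilin, was at 5314, 3900, 6373 and 2445 after PBS and 619, 653, 854 and 771 after IL-33. All of its IL-33 values were far below all PBS values (−2.56 ± 0.43 SE, limma adjusted p = 7.49e-04). Scarb2, the receptor LIMP-2 that brings glucocerebrosidase to lysosomes, went from 10416 ± 2025 to 3684 ± 1185 (−1.54, limma adjusted p = 0.002285). The Scarb2 call held in 21 of 22 alternative settings and was lost without the variance trend (limma adjusted p = 0.174). Lrp1, an endocytic receptor, went from 10583 ± 872 to 5614 ± 1338 (−0.94, limma adjusted p = 0.02998), a call that was lost in edgeR (adjusted p = 0.0632) and when any 1 library other than IL-33 replicate 4 was left out. Of genes named after their values were seen, Lgmn, which encodes the legumain that trims cysteine cathepsins, was at 11731 ± 8796 and 9607 ± 4559 (0.01, limma adjusted p = 0.9966). The partners of cathepsin A, Glb1 and Neu1, were not called either (limma adjusted p = 0.4111 and 0.6779).

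The genes of lysosomal acidification, mostly subunits of the proton pump, had 0 calls among 19 tested by limma (median −0.13). By comparison, 5.85% of all tested genes were called, and 19.3% of those whose mean reached 1000. Of these 19, 4 had an unadjusted p under 0.05, and edgeR called 0 and DESeq2 1. Without IL-33 replicates 3 and 4, limma called 1 higher (Tcirg1) and 1 lower (Slc38a9). Atp6ap1, an accessory subunit, was at −0.45 (limma adjusted p = 0.506) and Atp6v0b, a membrane subunit, at 0.24 (limma adjusted p = 0.674). Nor was any of 12 tested lysosomal transcription factors and regulators of mTORC1 called by limma (median −0.75), against the same 5.85% and 19.3%. Of these 12, 3 had an unadjusted p under 0.05, and edgeR and DESeq2 called 0. Tfe3 was at −0.09 (limma adjusted p = 0.927) and Flcn at −0.42 (limma adjusted p = 0.719), and both signs changed when 1 library was left out.

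In the class II pathway, where cathepsins S, L and F cut the invariant chain, 1 of 11 tested genes rose and 1 fell (median 0.86). By comparison, 3.06% of all tested genes were called higher and 2.8% lower, and 10.9% and 8.34% of those whose mean reached 1000. Without IL-33 replicates 3 and 4, and in edgeR, the counts were 1 and 0, and in DESeq2 1 and 2. Cd74, the invariant chain itself, was at 61.0, 317, 161 and 56.4 after PBS and at 3497, 3061, 966 and 1816 after IL-33. No IL-33 value came near the PBS range (4.16 ± 0.77 SE, limma adjusted p = 0.00198). H2-DMb1, which helps exchange the invariant chain remnant for peptide, was at 1329, 1379, 2192 and 1424 after PBS and 793, 277, 97.7 and 7.64 after IL-33 (−3.72 ± 1.05 SE, limma adjusted p = 0.04244). DESeq2 called it (−2.43, adjusted p = 0.0363) and edgeR did not (−2.41, adjusted p = 0.116). Leaving out any single PBS library or IL-33 replicate 3 ended the limma call. The estimate was −2.47 without IL-33 replicate 4 (limma adjusted p = 0.0189) and −1.72 without replicates 3 and 4 (limma adjusted p = 0.0812).

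**Figure D4:**
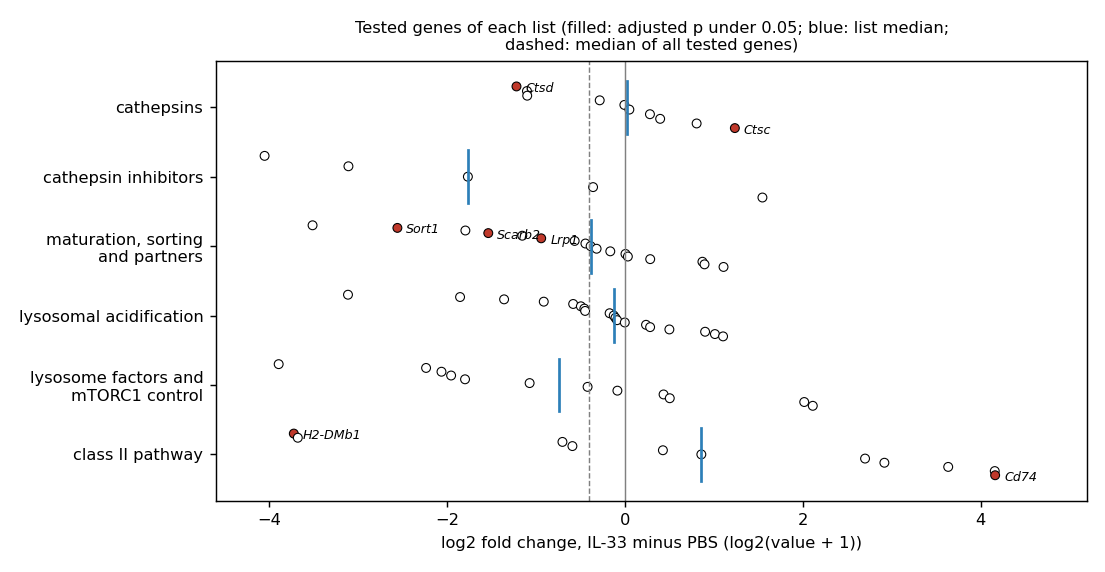
Log2 fold change after IL-33 of each tested gene in the cathepsin list and the 5 lists around it (circles, filled at an adjusted p under 0.05 in limma), with the median of each list in blue and that of all tested genes (−0.40) as a dashed line. Filled circles are Ctsd, Sort1, Scarb2, Lrp1 and H2-DMb1 on the negative side and Ctsc and Cd74 on the positive side.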

How the data were processed

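The deposited table, a signal per gene and library that the authors named normalized counts, consists of counts divided by 1 factor per library: dividing each library by its smallest step gave whole reads for 100% of nonzero values (tolerance 0.01 read). Per the submitters' processing notes, which give no roles, the tools were STAR 2.5.4b, HTSeq 0.9.0, FastQC and DESeq2 1.24.0, and the builds GRCm38 and mm10, and per the labels' protocols libraries were made with the QuantSeq FWD 3′ kit. How strand, duplicates and reads matching several places were handled is not given in the sources used here, and reads are not independent molecules.

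All 10 symbols stood on 1 row each. limma 3.58.1 (R 4.3.3) with a variance trend was fitted to log2(value + 1) for genes with a mean of at least 10, group as the sole term, two-sided. The interaction came from a fit with separate means for the 4 combinations of treatment and sex. edgeR 4.0.16 (quasi-likelihood) called 757 genes and DESeq2 1.42.0 called 1667 on the recovered reads, against 812 in limma. Other alternatives were pseudocounts of 0.5 and 5, no minimum or a minimum of 50, TMM, quantile normalization, no trend, library weights, sex as a covariate and leaving out libraries. Minimum means of 500 with and without the trend were added after seeing the data.

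Named genes followed a rule (all 10 members; up to 4 called, otherwise the 2 most abundant, per pathway list; 2 markers per cell type; exceptions are marked). The members and lists were chosen with earlier results of these data known. Gene coordinates are GENCODE M21, GRCm38. The fitting scripts were tested on simulated data.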

Additional observations from a re-analysis of the deposited data

Results flagged for a closer look

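Single libraries far from the other 3 of their group were found in 10 of 78 groups, for 39 genes in 2 groups each (Dixon's ratio above its 95% critical value, where chance flags about 1 in 20). Among cathepsin genes, Ctsc was at 9901 in PBS replicate 8, against 5984 to 6272 in the other PBS libraries. Ctsf was at 4278 in PBS replicate 7, against 1730 to 2038. Ctsz was at 28620 in IL-33 replicate 1, against 14883 to 16814. H2-DMb1 was at 2192 in PBS replicate 7, against 1329 to 1424. The rest were low counts of marker genes of other cell types. Mrc1, of border macrophages, was at 159 in IL-33 replicate 1, against 0 to 10.9. F13a1, of the same list, was at 231 in PBS replicate 5 (0 to 24.6 in the others) and at 201 in IL-33 replicate 4 (0 to 2.08). S100a4, of the monocyte list, was at 541 in IL-33 replicate 3, against 0 to 18.6. Vcan, of the same list, was at 0.822, which is 1 read, in PBS replicate 7, against 0. A single read against 0 always gives this flag. In IL-33 replicates 1 to 4 Vcan was at 228, 421, 366 and 0 (6.05, limma adjusted p = 0.1458), and edgeR and DESeq2 called it higher. The neuronal gene Syt1 was at 962 in IL-33 replicate 4, against 1.97 to 156. The cause was not tested.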

How the results depend on the processing

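Of 22 alternatives the call of Ctsc held in 15 and that of Ctsd in 17, and neither changed direction. Cathepsin genes called higher and lower, 1 and 1, became 0 and 0 without a filter on low values, without the variance trend, with a minimum mean of 500 and no trend, without IL-33 replicates 3 and 4, and without PBS replicate 6 alone. With 1 library left out they ranged from 0 to 2 higher and from 0 to 1 lower. Genes called in all, 812, became 501 without a filter, 413 without the trend and 1667 in DESeq2, and ranged from 458 to 963 with 1 library left out. Some estimates that had not passed changed sign. Quantile normalization gave −0.13 for Ctsb, −0.28 for Ctsh and 0.23 for Ctss. With 1 library left out Ctsh ranged from −0.055 to 0.16, Ctss from −0.065 to 0.048, Tfe3 from −0.29 to 0.12, Flcn from −1.11 to 0.13 and Cx3cr1 from −0.15 to 0.16. Without IL-33 replicates 3 and 4 Tfe3 was at 0.021, and Flcn was at 0.10 in edgeR and 0.12 in DESeq2. The median of all tested genes, −0.40, was −0.12 with quantile normalization and −0.13 without IL-33 replicates 3 and 4. The cause was not tested. No paired analysis was possible because the replicate numbers are not shared between the groups. Genes under 3 reads in a library, such as Cst7 in IL-33 replicate 4, cannot be told from 0 at this depth.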
